A study of Mus musculus with 11 samples.

Results

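The granins and the neuropeptide processing enzymes are 10 genes, chosen by symbol for their role in packing and cutting peptide precursors: the granin genes Scg2, Vgf, Chga, Chgb and Scg3, the convertase chaperone gene Scg5, and the enzyme genes Pcsk1, Pcsk2, Cpe and Pam. All 10 were found among the 14864 genes of the deposited table, and all 10 passed the filter of a mean of at least 1 CPM (counts scaled to a common library size) that left 13184 genes for testing. The RNA came from hypothalami of mice aged 60 to 70 postnatal days. There were 5 wild-type libraries (WT, 2 female and 3 male) and 6 libraries labelled heterozygous (Het, 3 female and 3 male). The study was of loss of Myt1l, a zinc finger transcription factor gene of neurons. The labels do not say which allele, which strain and which dissection borders were used. Each library has its own identifier in its description. Nothing says in words that libraries are separate animals, so p-values measure the spread between these samples. No treatment is labelled in either group, and the question the comparison addresses is how the transcriptome differs when 1 copy of Myt1l is mutated.

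Neuropeptides and peptide hormones are made as long precursors that enter dense-core vesicles, where granins help to gather and store the cargo. Inside the vesicle, convertases cut the precursor at pairs of basic residues, carboxypeptidase E trims the basic residues left at the new ends, and the amidating enzyme encoded by Pam gives many peptides the amide end that their receptors need. The hypothalamus is rich in peptide neurons. Loss of Cpe function is known to cause obesity in mice and humans, and loss of Pcsk1 function in humans. Granins are themselves cut into active peptides, such as secretoneurin from Scg2.

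Corrected counts summed to 23701175 to 24941704 per library in WT and to 22921048 to 23799167 in Het. The part of this difference in the granin values was not tested, and values under other scalings are given below. Regional markers of the hypothalamus, transcription factor genes and the histidine decarboxylase gene Hdc, were present: all 17 listed genes were in the table, none was at 0 in all libraries, and together they reached 184 to 208 CPM in WT and 168 to 209.5 CPM in Het. Levels of Myt1l overlapped between the genotypes, and its mean was 76.3 ± 15.9 CPM over the 5 WT and 76.3 ± 26.9 CPM over the 6 Het libraries (SD). The library labelled WT replicate 11 had the lowest WT value, 51.1 CPM, and the library labelled Het replicate 9 the highest of all, 130 CPM. Directions below are therefore those of the libraries as labelled, and each gene's value without these 2 libraries in doubt is given beside its own. Markers of the striatum, which lies next to the hypothalamus, were higher in Het for 14 of 14 genes, 8 of which passed the test, and their sum ran from 587 to 944 CPM in WT and from 823 to 1412 CPM in Het. None of the 14 was at 0.

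Of the 10 genes, 8 had a promoter in the RefSeq table of build GRCm38.p6, which is the mm10 build of the deposited counts (Vgf and Cpe had none there). The full cAMP response element TGACGTCA, a palindrome bound by factors of the CREB family, occurred within the window of 250 bases before to 50 after the start in Scg2, Chgb and Pcsk1, and in 1.79% of all 32851 promoters of that length. Its shorter core TGACG, searched on both strands and overlapping the full element where that is present, occurred in 7 of the 8, all but Pam, and in 20.8% of all promoters. The core AAGTT that the MYT1 family recognises, also searched on both strands, occurred in 2 of the 8, Chga and Scg3, and in 39.3% of all promoters. The 4 windows below, each 30 bases long and read 5′ to 3′ on the gene's strand, show the shared element in capitals for the 3 genes with the full element and the shorter core in capitals for Chga, as the letters that these genes have in common beside their expression values. The windows lie at chr1:79440076-79440105 on the minus strand for Scg2, chr2:132781559-132781588 on the plus strand for Chgb, chr13:75089768-75089797 on the plus strand for Pcsk1 and chr12:102554886-102554915 on the plus strand for Chga.
Scg2: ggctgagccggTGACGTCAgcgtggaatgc
Chgb: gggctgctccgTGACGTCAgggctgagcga
Pcsk1: ccaggtagatcTGACGTCAagagatggctt
Chga: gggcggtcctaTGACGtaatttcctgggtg
The full element began 68 bases before the RefSeq start in Scg2, 72 in Chgb and 78 in Pcsk1, and the shorter core of Chga began 44 bases before it. The gene positions given below come from another annotation, GENCODE M21, whose starts differ. By those positions the Scg2 and Chgb windows lie inside the annotated gene, and the Pcsk1 and Chga windows lie before it. A match of letters is a description and not a measured binding site.

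Granin and processing genes were among the more abundant transcripts of the tissue. Summed over the 10 genes they took 0.468% to 0.497% of the corrected counts in the 5 WT libraries and 0.411% to 0.457% in the 6 Het libraries. The sum weighs the most abundant genes most, with mean CPM of 1690 for Cpe, 1079 for Scg2 and 583 for Scg5 over the 11 libraries. How often sums of other genes separate the groups in this way was not tested. By mean CPM, Cpe ranked 55 and Scg2 ranked 96 of 14864 genes, while Pcsk1 ranked 4298 and Vgf 6813. Between genes, levels were compared per kilobase of annotated exons. Cpe was highest at 648 CPM per kilobase over the 11 libraries (range 550.0 to 750 CPM per kilobase), followed by Scg2 at 429 (378 to 486) and Scg5 at 372 (308 to 414), whose ranges overlapped. Chga at 152 (111 to 222) and Chgb at 114 (94.8 to 124) overlapped too, and Scg3 stood below them at 80.7 CPM per kilobase. The enzymes other than Cpe formed a lower tier, with Pcsk2 at 14.4 and Pam at 11.4 CPM per kilobase, overlapping in range. Pcsk1 at 6.47 (5.37 to 7.42) and the granin gene Vgf at 5.53 (3.64 to 7.58) were the lowest and overlapped. The highest mean level per length was thus 117 times the lowest. With the length of the longest transcript in place of all annotated exons, Scg5 stood above Scg2 (483 against 429 CPM per kilobase) and Pam above Pcsk2 (33.2 against 24.1 CPM per kilobase).

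**Figure D1:**
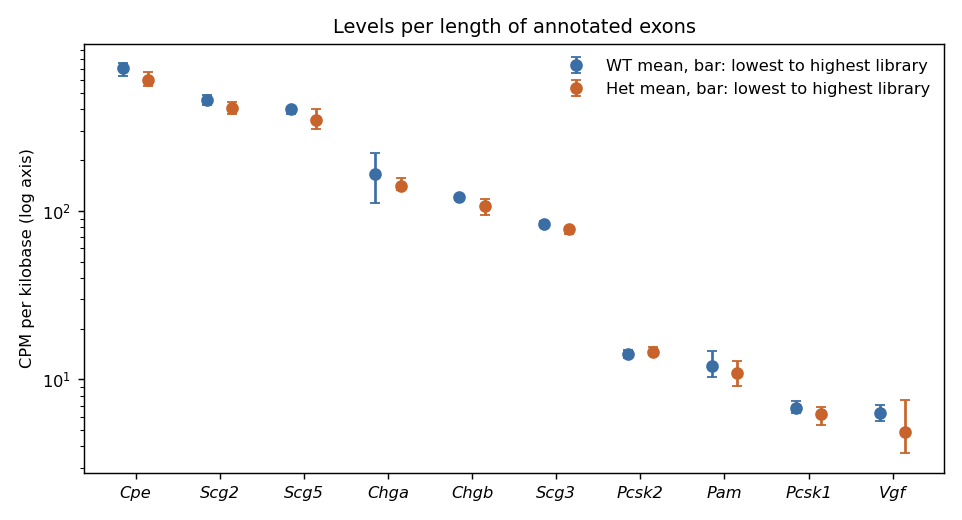
Levels of the 10 genes in CPM per kilobase of annotated exons, on a log axis, with the mean of WT and of Het libraries as points and bars from the lowest to the highest library. The carboxypeptidase gene Cpe and the granins Scg2, Chga, Chgb and Scg3, with Scg5, stand above the convertase and amidation genes and Vgf, which is the lowest.

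Across the genotypes, 9 of the 10 genes had lower values in Het by small amounts, and Pcsk2 did not. The median log2 difference was -0.17 for the 10 genes and -0.02 over all 13184 genes tested. No gene of the 10 passed a limma adjusted p of 0.05, where 3.44% of all genes passed in either direction, 1.14% lower and 2.3% higher in Het. At an unadjusted limma p under 0.05, 7 of the 10 were lower in Het, where the background over all genes was 11.7%. A negative difference alone was found in 53% of all genes. In bulk tissue, fewer cells of a type and less RNA per cell cannot be told apart. Striatal markers were higher in the same Het libraries, with a median log2 difference of 0.55, while 12 neuronal markers had a median of 0.05 and none of them passed. Of 16 hypothalamic regional markers tested 11 had a negative difference, with a median of -0.11, and none passed. Of 11 thalamic markers 1 passed, Tcf7l2 (0.39), with a median of 0.17 and sums of 838 to 969 CPM in WT and 779 to 979 CPM in Het. Of 8 astrocyte markers 1 passed, Slc1a2 (0.40), with a median of -0.04. Of 10 cortical and hippocampal markers tested 5 were negative, and Rorb alone passed, with means of 34.4 CPM in WT and 47.4 CPM in Het. The cortical and hippocampal list summed to 70.4 to 87.3 CPM in WT and 90.7 to 95.3 CPM in Het, a separation to which Rorb contributed most. The part of these marker lists in the granin values was not tested.

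**Figure D2:**
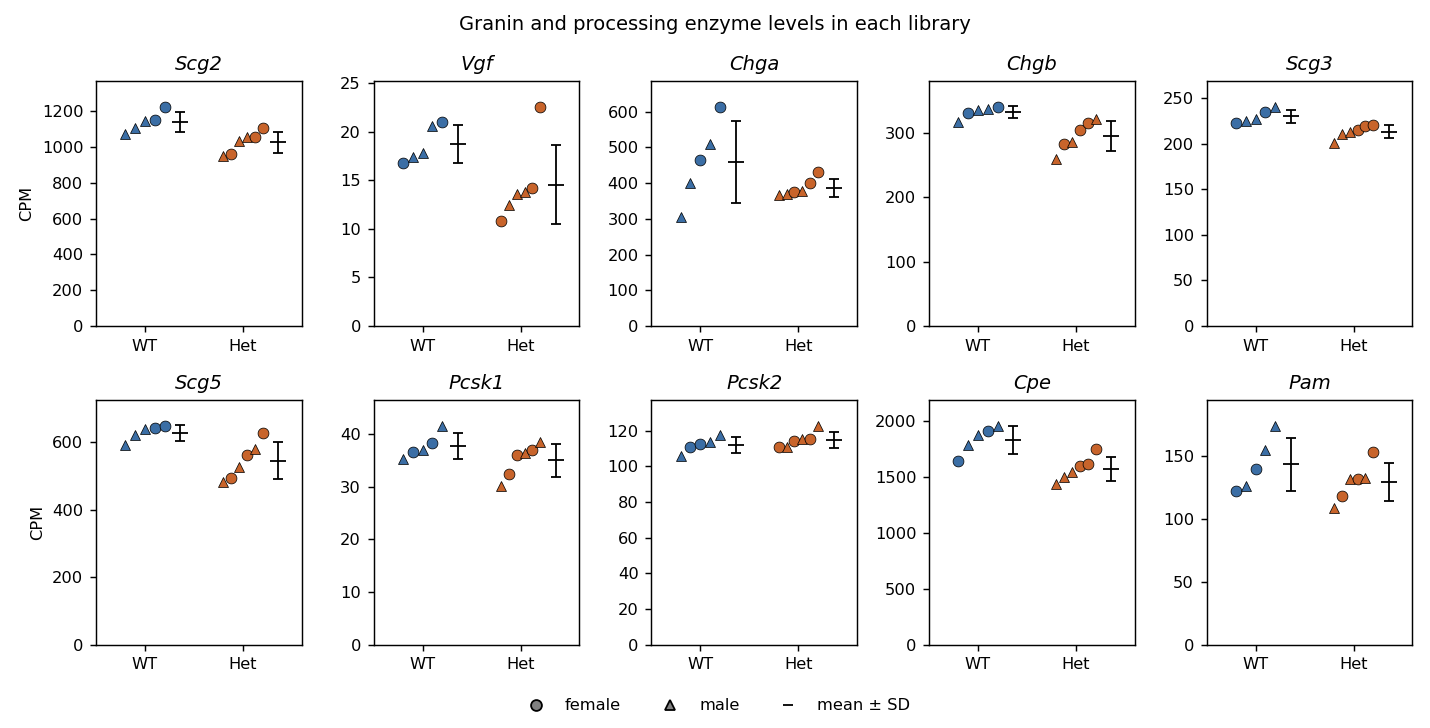
CPM of each gene in each library, by genotype (WT blue, Het orange) and sex (circles female, triangles male), with the mean and SD of each group beside the points. Scg3 is the gene whose groups do not overlap, from 200.4 to 221 CPM in Het and from 223 to 240.1 CPM in WT.

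Scg3, whose granin product binds cholesterol-rich vesicle membrane and chromogranin A, gave the cleanest separation at a small size. The WT values were 223, 225, 228, 235 and 240.1 CPM, and the Het values ran from 200.4 through a median of 214 to 221 CPM. All 6 Het libraries were below all 5 WT libraries, which is the case for 3.35% of all genes tested in one or the other direction. The gene (ENSMUSG00000032181) lies on chromosome 9 from 75643189 to 75684056, minus strand. The log2 difference was -0.11 (SE 0.05, 95% confidence interval -0.22 to -0.01). Its limma adjusted p was 0.177, and its two-sided exact permutation p was 0.005, the smallest that 200 arrangements of genotype within sex can give. It was -0.10 without the 2 libraries in doubt and -0.04 with quantile normalization, neither at an unadjusted p under 0.05.

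Scg2, the precursor of secretoneurin and the most abundant granin transcript here (ENSMUSG00000050711, chromosome 1 from 79434669 to 79440120, minus strand), had WT values of 1072, 1108, 1148, 1154 and 1222 CPM. Its Het values ran from 949.9 through a median of 1043 to 1107 CPM. Of the Het libraries, 5 of 6 lay below every WT library, and the ranges overlapped through Het replicate 7. How many of all genes have 5 of 6 Het libraries below every WT library was not counted. The same holds wherever this count is given for the genes below. The WT mean was 1141 ± 56.4 CPM and the Het mean 1027 ± 60.1 CPM (SD of 5 and 6 libraries). On the log2 scale Het minus WT was -0.16 (SE 0.05, limma adjusted p = 0.0967, exact permutation p = 0.01). Without the 2 libraries in doubt it was -0.14, within prefix 14308 (the leading number of a library's description, whose meaning is not labelled) it was -0.09, and with quantile normalization it was -0.04 (limma adjusted p = 0.691).

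Chgb, chromogranin B, was tight in WT and wider in Het. Its WT values were 317, 331, 336, 337 and 340.0 CPM, and its Het values ran from 259.7 through a median of 296 to 321 CPM. Of its 6 Het libraries 5 were below all WT libraries. The gene (ENSMUSG00000027350, chromosome 2 from 132781278 to 132795079, plus strand) differed by -0.18 on the log2 scale (SE 0.06, limma adjusted p = 0.0912, exact permutation p = 0.02). Without the 2 libraries in doubt it was -0.20, and with quantile normalization -0.10.

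Chga, chromogranin A, the precursor of catestatin and other peptides (ENSMUSG00000021194, chromosome 12 from 102554969 to 102565028, plus strand), varied most between WT libraries. The WT values were 306, 401, 466, 508 and 612 CPM, and the Het values ran from 366 through a median of 377 to 430.1 CPM. The WT range thus enclosed the whole Het range, with an SD of 115 CPM in WT against 24.3 CPM in Het. On the log2 scale Het minus WT was -0.24 (SE 0.11, limma adjusted p = 0.208, exact permutation p = 0.15). Without WT replicate 3, the lowest WT library, it was -0.35 and passed (limma adjusted p = 0.0159). Without WT replicate 4, the highest WT library, it was -0.13 (limma adjusted p = 0.497). It was -0.18 without the 2 libraries in doubt and -0.14 with quantile normalization, and among the 4 libraries with prefix 14308, all male, it turned to 0.09.

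Vgf, a granin-like precursor whose mRNA is induced by growth factors and neuronal activity and whose peptides act on energy balance, had the most negative difference of the 10. The gene (ENSMUSG00000037428) lies on chromosome 5 from 137026392 to 137033351, plus strand. Its WT values were 16.8, 17.4, 17.8, 20.5 and 21.0 CPM. In Het, 5 libraries had 10.8 to 14.2 CPM, below every WT value, and replicate 4, a female, had 22.5 CPM, above every WT value. Het minus WT was -0.39 on the log2 scale (SE 0.15, limma adjusted p = 0.128, exact permutation p = 0.065). Without Het replicate 4 it was -0.51 (limma adjusted p = 0.0330), so that 1 library decided the call. Without the 2 libraries in doubt it was -0.35 and no longer had an unadjusted p under 0.05.

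Scg5 encodes the small secretory chaperone that the convertase encoded by Pcsk2 needs for its activation. Its WT values were 592, 621, 639, 642 and 649 CPM, and its Het values ran from 484 through a median of 544 to 628 CPM. Of its 6 Het libraries 5 were below all WT libraries, with Het replicate 7 inside the WT range. The gene (ENSMUSG00000023236, chromosome 2 from 113776362 to 113829121, minus strand) differed by -0.22 on the log2 scale (SE 0.06, limma adjusted p = 0.0682, exact permutation p = 0.015). Without Het replicate 7 it was -0.25 and passed (limma adjusted p = 0.0395). It was -0.20 without the 2 libraries in doubt and -0.12 with quantile normalization.

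Pcsk2, the convertase served by that chaperone, was the 1 gene of the 10 with a positive difference. Its values were 106 to 118 CPM in WT and 111 to 123 CPM in Het, with a WT mean of 112 ± 4.31 and a Het mean of 115 ± 4.41 CPM (SD of 5 and 6 libraries). The log2 difference was 0.04 (SE 0.05, 95% confidence interval -0.07 to 0.15, limma adjusted p = 0.714), and it was -0.03 in prefix 14308 and -0.0016 without the 2 libraries in doubt (0.02 without either one of them alone). The gene (ENSMUSG00000027419) lies on chromosome 2 from 143546156 to 143816285, plus strand. Annotated antisense genes overlap 260 and 99 bases of its exons, 3.29% of the exon length for the larger, and reads of either strand cannot be told apart because the strand setting of the counting is unknown. Pcsk1, the convertase of early secretory vesicles (ENSMUSG00000021587, chromosome 13 from 75089826 to 75134861, plus strand), had 35.3 to 41.6 CPM in WT and 30.1 to 38.6 CPM in Het. Its groups overlapped, and its log2 difference was -0.11 (SE 0.08, limma adjusted p = 0.452). It was -0.05 without Het replicate 9, -0.07 without both libraries in doubt and -0.03 within prefix 14308.

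Cpe, carboxypeptidase E, came nearest to the threshold. Its WT values were 1639, 1787, 1875, 1907 and 1957 CPM, and its Het values ran from 1435 through a median of 1568 to 1746 CPM. The lowest WT library was replicate 4, a female, and 5 of 6 Het libraries were below it, with Het replicate 4 above it. The gene (ENSMUSG00000037852, chromosome 8 from 64592542 to 64693054, minus strand) had a Het minus WT value of -0.23 (log2 scale, SE 0.06, 95% confidence interval -0.36 to -0.10, limma adjusted p = 0.0513, exact permutation p = 0.025). It passed when WT replicate 4 was left out (-0.29, limma adjusted p = 0.0245), when Het replicate 4 was left out (-0.25, limma adjusted p = 0.0457) and when libraries were centred on their medians (-0.25, limma adjusted p = 0.0378). With quantile normalization it was -0.11 (limma adjusted p = 0.269), and without the 2 libraries in doubt -0.19 (limma adjusted p = 0.134).

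Pam, which makes the amide end of many neuropeptides, varied widely in both groups. Its values were 123 to 174 CPM in WT and 109 to 154 CPM in Het, and the log2 difference was -0.14 (SE 0.10, limma adjusted p = 0.405). Single libraries moved this value, to -0.07 when WT replicate 3 and to -0.08 when Het replicate 9 was left out. Leaving out both libraries in doubt gave -0.12. With quantile normalization it was -0.09, and within prefix 14308 it was -0.31. The gene (ENSMUSG00000026335) lies on chromosome 1 from 97795114 to 98095646, minus strand.

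By role, all 5 granin genes had a negative difference, with a median of -0.18, and all 5 had an unadjusted limma p under 0.05. Over all genes 53% had a negative difference, and 11.7% were lower at an unadjusted limma p under 0.05. Of the 4 enzyme genes 3 had a negative difference, with a median of -0.12, and Cpe alone had an unadjusted p under 0.05. The signs held under both other scalings, with 9 of 10 genes negative under median centring (median -0.19) and under quantile normalization (median -0.10). Of all 13184 genes, 7586 were negative under median centring and 6840 under quantile normalization. Under quantile normalization only 2 of the 10 were lower at an unadjusted p under 0.05, where 1158 of all 13184 were. Within each identifier prefix 9 of 10 were negative as well, with medians of -0.16 in prefix 14308 and -0.17 in prefix 14309. Of all 13184 genes, 6810 were negative in prefix 14308 and 6974 in prefix 14309. Without the 2 libraries whose Myt1l goes against their label, 10 of 10 were negative with a median of -0.16. Of the 10, 4 had an unadjusted p under 0.05 and none passed the adjusted threshold. Of all 13184 genes in that setting, 6773 were negative, 1482 were lower at an unadjusted p under 0.05 and 229 passed the adjusted threshold.

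**Figure D3:**
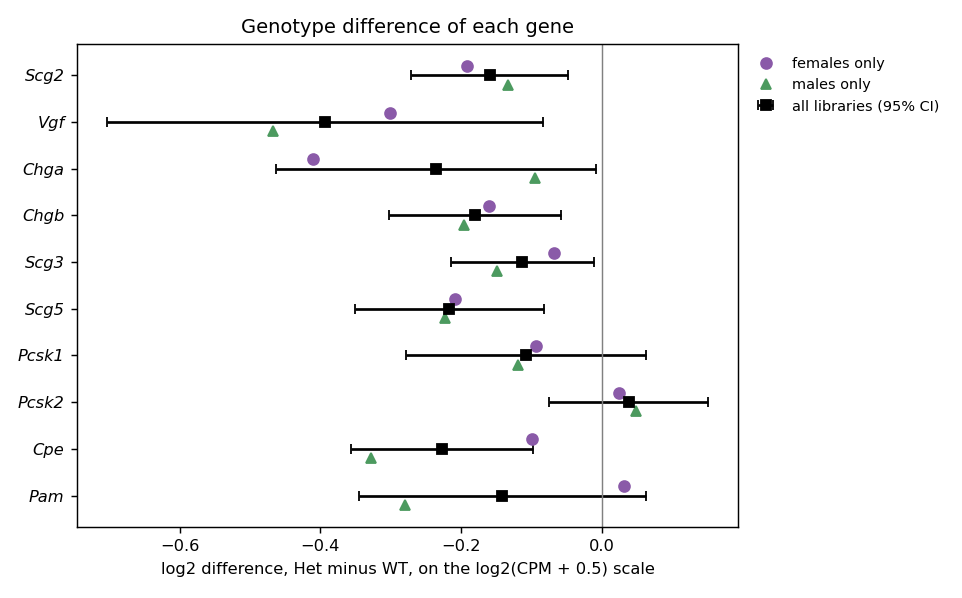
Log2 difference between Het and WT on the log2(CPM + 0.5) scale, with black squares and 95% confidence intervals from all 11 libraries, purple circles for females and green triangles for males. The squares of 9 genes lie left of 0, Pcsk2 lies at 0.04, and the female and male values of Chga, Pam and Cpe lie farther apart than those of the other 7, with the female value lower for Chga and the male value lower for Pam and Cpe.

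Whether the genotype difference depended on sex was tested by an interaction term. None of the 10 genes passed (limma, 0 also at an unadjusted p under 0.05), and over all genes 0% passed the adjusted threshold and 4.65% had an unadjusted p under 0.05. Within females none of the 10 passed, where 0% of all genes did, and within males none of the 10 passed, where 0.0683% did. In females 8 of 10 differences were negative and in males 9 of 10. The share of negative differences over all genes was not counted within each sex. The lowest interaction p was that of Cpe, whose difference was -0.10 in females (SE 0.08) and -0.33 in males (SE 0.08). The difference between the sexes was 0.23 (95% confidence interval -0.01 to 0.47, limma unadjusted p = 0.0619, adjusted p = 0.982). Male Cpe averaged 1873 ± 84.7 CPM over 3 WT and 1491 ± 54.0 CPM over 3 Het libraries. Female Cpe averaged 1773 ± 189 CPM over 2 WT and 1652 ± 82.1 CPM over 3 Het libraries (SD). Pam was at 0.03 in females and -0.28 in males, with an interaction of 0.31 (95% confidence interval -0.09 to 0.71, limma adjusted p = 0.982). Chga ran the opposite way, at -0.41 in females and -0.10 in males, with an interaction of -0.32 (95% confidence interval -0.77 to 0.14, limma adjusted p = 0.982). All 3 female values rest on 2 WT libraries that differed. Of these, WT replicate 4 was the lower for Cpe (1639 against 1907 CPM) and Pam (123 against 140 CPM). It was the higher for Chga (612 against 466 CPM). Without the 2 libraries in doubt none of the 10 passed for the interaction or for sex.

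Females and males were compared in the same fit. None of the 10 genes passed (limma, 1 at an unadjusted p under 0.05), where 0.197% of all genes passed and 12.2% had an unadjusted p under 0.05. The 1 gene was Chga, with 457 ± 93.1 CPM over 5 female and 388 ± 66.7 CPM over 6 male libraries (SD). Its log2 difference of female minus male was 0.25 (SE 0.11, limma adjusted p = 0.354). The other 9 genes had differences of -0.03 to 0.11.

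The cargo and the remaining machinery of the pathway were read from 3 further lists. Of 36 peptide precursor genes 31 were tested: 6 fell in Het, 1 rose and 24 did not pass, 26 had a negative difference, and the median was -0.24 against -0.02 over all genes. Over all genes 1.14% fell and 2.3% rose. The 6 were Avp (vasopressin), Hcrt (orexin), Oxt (oxytocin), Adcyap1 (PACAP), Gal (galanin) and Pmch (melanin-concentrating hormone), with log2 differences of -0.65 to -0.34, and the riser was Pdyn, the dynorphin precursor (0.41, limma adjusted p = 0.0368). These differences stood beside -0.39 for Vgf and -0.24 to 0.04 for the other 9 granin and processing genes. Without the 2 libraries in doubt 5 fell and none rose, and without the sex term none passed. With quantile normalization Adcyap1, Oxt and Avp fell, and with 1 residual degree of freedom taken off Gal, Oxt, Avp and Hcrt fell and none rose. With each library left out in turn 3 to 6 fell, Avp, Hcrt and Oxt in every run, and Pdyn did not pass without Het replicates 4, 8 or 9 or WT replicates 4, 6 or 7.

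Of 22 other granin-like and processing genes 21 were tested, of which 2 fell, where 1.14% of all genes fell, and 19 missed the threshold. The median was -0.07. Ctsl, the gene of the protease cathepsin L that also cuts prohormones, had WT values of 252, 256, 259, 279 and 288 CPM and Het values from 219 to 243 CPM, without overlap. It fell by 0.22 on the log2 scale (SE 0.05, limma adjusted p = 0.0340). Qpct, the glutaminyl cyclase that makes the pyroglutamate start of some peptides, had WT values of 128, 134, 135, 139 and 146 CPM and Het values from 109.7 to 123 CPM, again without overlap. It fell by 0.22 (SE 0.06, limma adjusted p = 0.0472). Nucb2, the nesfatin precursor gene, had 36.7 ± 3.83 CPM in WT and 30.6 ± 2.53 CPM in Het and a difference of -0.27 (limma adjusted p = 0.0566). Neither Ctsl nor Qpct passed without the 2 libraries in doubt, without the sex term, or with 1 residual degree of freedom taken off. Neither passed with quantile normalization, or without Het replicates 2, 4, 5, 8 or 9 or WT replicates 6 or 7 in turn. None of this list fell in any of these settings. Qpct alone also missed the threshold with prefix as a block and with no filter on low values. The same held without Het replicate 7 or WT replicates 3 or 4 in turn, where Ctsl passed.

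Of 38 genes of dense-core vesicle formation and release 37 were tested, of which 2 rose and 1 fell, where 2.3% of all genes rose and 1.14% fell, and 34 missed the threshold. The median was -0.04. Rab3c, a small GTPase of secretory vesicles, had WT values of 139.8, 140.4, 168, 169 and 171 CPM and Het values of 192 to 221 CPM, without overlap, and rose by 0.39 (SE 0.07, limma adjusted p = 0.00709). Sytl5, a Rab effector, rose by 1.09 (SE 0.21, limma adjusted p = 0.0124) from a mean of 1.40 ± 0.48 CPM over 5 WT to 3.46 ± 0.75 CPM over 6 Het libraries (SD). Resp18, an endocrine vesicle protein gene, had WT values of 866, 959, 989, 1069 and 1153 CPM and Het values of 712 to 964 CPM, and fell by 0.31 (SE 0.07, limma adjusted p = 0.0326). Once the 2 libraries in doubt were left out, Rab3c and Sytl5 still passed and Resp18 did not. Resp18 also missed the threshold without the sex term, with 1 residual degree of freedom taken off, and without Het replicates 2, 4, 5, 8 or 9 or WT replicates 6 or 7, each of which left none of the list lower. Under quantile normalization 4 genes of this list rose and none fell.

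**Figure D4:**
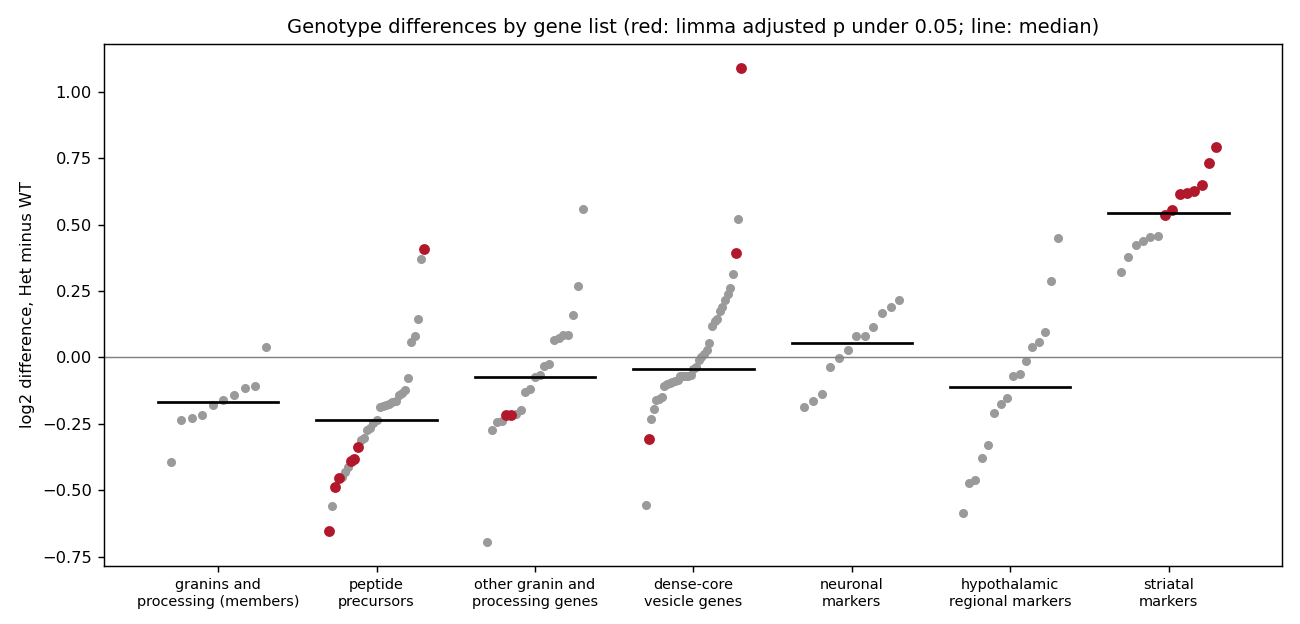
Log2 difference between Het and WT of every tested gene in 7 lists, ordered within each list, with genes past a limma adjusted p of 0.05 in red and the median of each list as a line. The medians are -0.17 for granins and processing genes, -0.24 for peptide precursors, -0.07 for other granin-like and processing genes, -0.04 for dense-core vesicle genes and 0.55 for striatal markers.

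Pituitary genes were read because that gland lies below the hypothalamus and is itself rich in granin RNA. Cga, the gene of the common alpha chain of pituitary glycoprotein hormones, averaged 12.7 ± 2.53 CPM over the 5 WT libraries (SD). Its log2 difference was -0.56 (SE 0.22, 95% confidence interval -1.03 to -0.08, limma adjusted p = 0.155), and it did not pass. The genes for growth hormone, prolactin and the luteinizing hormone beta chain were not among the rows of the table. The part of pituitary RNA in the granin values was not tested.

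Between libraries of the same genotype and sex, the correlations among the 10 genes had both signs. After the mean of each genotype and sex group was taken out, 17 of 45 pairs were positively correlated over the 11 libraries and the median Pearson r was -0.17. None of the 45 passed after Benjamini-Hochberg adjustment over the pairs, and 13 had an unadjusted exact permutation p under 0.05, where the arrangements within groups allow 0.00231 at best. The shares of such pairs among all genes were not computed, so these counts do not set the 10 genes apart from others. Scg2 went with Pcsk1 (r 0.86, rho 0.84, exact permutation p = 0.00463 and 0.0162, adjusted 0.130 and 0.182, r 0.77 without the 2 libraries farthest from the Scg2 median). Scg5 went against Chgb (r -0.88, rho -0.86, exact permutation p = 0.0116 and 0.0139, adjusted 0.130 and 0.182, r -0.90 without the 2 farthest). Scg2, Scg5, Pcsk1 and Pam, picked from these same 45 correlations, were positively correlated in all of their pairs (r 0.62 to 0.86). Chgb was negatively correlated with each of the 4 (r -0.88 to -0.74). Without the 2 farthest libraries, Pam fell to r 0.34 with Scg2 and to r 0.41 with Pcsk1. The remaining pairs of the 4 genes then had r 0.66 to 0.82, and those with Chgb r -0.90 to -0.63. Since the authors' correction took out residual variation that libraries shared, these values describe what that correction left.

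**Figure D5:**
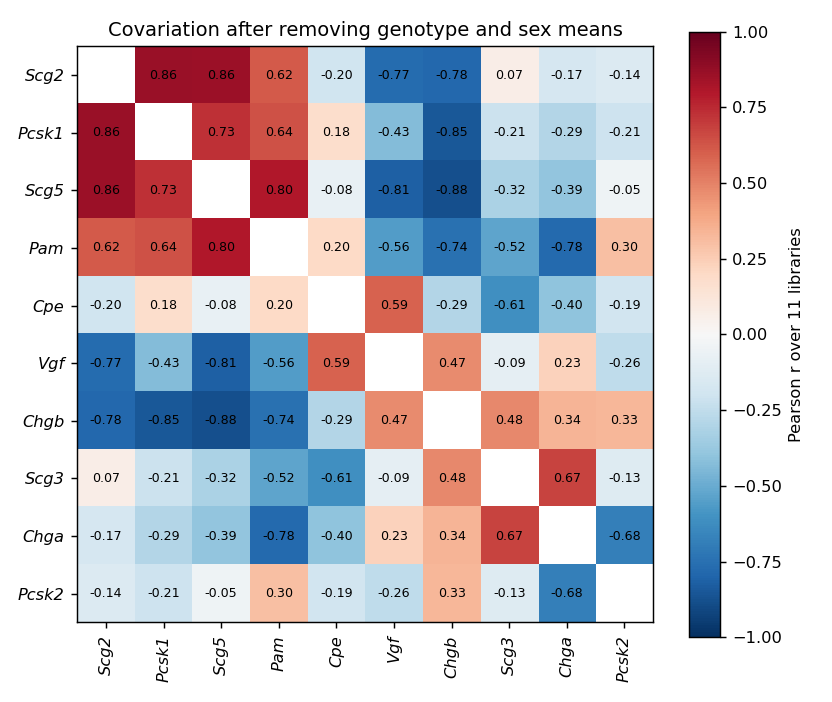
Pearson r between each pair of the 10 genes over 11 libraries, after the mean of each genotype and sex group was taken out, in red for positive and blue for negative values. Scg2, Pcsk1, Scg5 and Pam, set side by side by their correlations, form a positive corner, and Chgb is negative against all 4.

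The gene outside the 10 whose residual pattern over the 11 libraries was most like each of them is given as a description, with no p, because it is the highest correlation over all tested genes outside the 10, predicted genes left out. It was Pifo for Scg2 (r 0.97, rho 0.93), Usp51 for Vgf (r 0.98, rho 0.88), Hdac5 for Chga (r 0.99, rho 0.97), Lamp5 for Chgb (r 1.0, rho 0.98) and Lrrc46 for Scg3 (r 0.97, rho 0.95). It was Sass6 for Scg5 (r 0.98, rho 0.87), Zbtb11 for Pcsk1 (r 0.99, rho 1.0), Smim7 for Pcsk2 (r 0.98, rho 0.95), Gpx7 for Cpe (r 0.95, rho 0.93) and Ncam2 for Pam (r 0.99, rho 0.99). Among the 10 themselves, Scg2, Scg5 and Pcsk1 each had 2 of the other 9 within the top 5% of all genes, and the other 7 genes had none.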

How the data were processed

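The deposited table holds log2 CPM values of 11 libraries as the authors deposited it, after RUVr (given in the table's name), which takes out factors found in model residuals. The submitters' processing notes name Trimmomatic, Bowtie2, STAR and HTSeq and build mm10; the versions, strand setting and number of factors are not stated there. Linear CPM were recovered as 2 to the power of the value minus that of the column's floor (-3.57), which gave whole corrected counts for 100% of values within a tolerance of 0.02. The planned analysis named linear CPM, so log2(CPM + 0.5) was tested after this back-transform. A correction around residuals makes p-values too small by an unknown amount, and raw depth is unknown.

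Genes with a mean of at least 1 CPM were tested with limma 3.58.1 in R 4.3.3 (lmFit, eBayes with trend), with genotype and sex as terms, two-sided, Benjamini-Hochberg adjusted over 13184 genes, threshold 0.05. Fold changes are on the log2(CPM + 0.5) scale. Members, lists and tests were chosen with earlier results of these data known. Named genes were the 10 members, up to 3 genes of smallest p in each pathway list (all that passed, up to 8) and each member's nearest gene. Positions and exon lengths are from GENCODE M21 on the same build, promoters from RefSeq GRCm38.p6. The fit was tested on simulated data. Titles of WT and Het share the numbers 4 and 7.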

Additional observations from a re-analysis of the deposited data

Results flagged for a closer look

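One value stood apart from its group among the 20 groups of 5 or 6 libraries examined for the 10 genes, and chance gives about 1 such value in 20 groups. Vgf in Het replicate 4 was 22.5 CPM, the highest of 6, where the other 5 Het libraries had 10.8 to 14.2 CPM, and the gap to the nearest of them was 0.708 of the whole range. The same library had the highest Het values of Chga (430.1 CPM) and Cpe (1746 CPM) and the next to lowest of Scg2 (962 CPM) and Scg5 (495 CPM).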

How the results depend on the processing

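Of 240 values of the 10 genes under the other settings, 230 kept their direction and their side of the threshold, 7 came to pass it and 3 turned in sign: Chga within prefix 14308 (0.0935), and Pcsk2 within prefix 14308 (-0.0330) and without the 2 libraries in doubt (-0.0016). The number of the 10 genes that passed was 0 in the main result, 1 with median centring (Cpe) and 1 with prefix as a block (Cpe, where WT replicate 4 has no weight), and 0 to 2 with each library left out in turn. The genes called over the whole table numbered 453, against 200 without the sex term, 300 with prefix as a block, 6 within prefix 14308, 16 within prefix 14309, 189 with 1 residual degree of freedom taken off, 229 without the 2 libraries in doubt, 35 with the replicate block and 140 to 820 with each library left out in turn (820 without WT replicate 3). The within-prefix, replicate block and leave-out settings use fewer libraries. The settings without the sex term and with 1 residual degree of freedom taken off use all of them. The cause of these shifts was not tested. The split of higher and lower calls was 303 and 150, 233 and 243 with median centring, 362 and 102 with quantile normalization, and 166 and 34 without the sex term. None of the 10 genes passed for sex or for the interaction under the settings run for them. Genotypes share only the numbers 4 and 7, across different prefixes and, for 7, across sexes. Residual correlations over genes were 0.13 for number 4 and -0.09 for number 7, so the numbers were not taken to pair animals, and the replicate block, run without the sex term, called none of the 10 genes, with Vgf at -0.12, Cpe at -0.04 and Pam at -0.03, and called Pcsk1n higher in Het. The deposited log2 values as they are, a setting chosen after seeing the data, called 445 genes and none of the 10. With the longest transcript as length, levels in CPM per kilobase moved to 223 for Chga, 92.7 for Scg3, 483 for Scg5, 7.20 for Pcsk1, 24.1 for Pcsk2, 798 for Cpe and 33.2 for Pam. The median r of the 45 pairs was 0.28 when group means were not removed, by which the genotype difference enters. Raw depth is unknown, so no counting limit is given.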

Other observations

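Pcsk1n, which encodes the granin-like precursor proSAAS, an inhibitor of the convertase encoded by Pcsk1, was named after its values were seen. Its values were 53.9, 86.2, 115, 157 and 312 CPM in WT, and 49.6, 51.2, 55.0, 67.9, 83.4 and 362 CPM in Het. The 2 highest libraries of all were WT replicate 6 and Het replicate 4, both female, and the log2 difference between genotypes was -0.69 (SE 0.36, limma adjusted p = 0.274).

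The ratio of Scg5 CPM to Pcsk2 CPM, the chaperone against its convertase, was chosen after the values of both genes were seen and is given without a test. It was 5.43 to 5.80 in the 5 WT libraries, with a mean of 5.61 ± 0.17 (SD, n = 5), and 3.94 to 5.50 in the 6 Het libraries, with a mean of 4.76 ± 0.56 (SD, n = 6). The ranges overlapped at their edge. The ratio of Pcsk1 to Pcsk2 was 0.311 to 0.353 in WT and 0.245 to 0.348 in Het.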
